A study of Rattus norvegicus with 2 samples.

Results

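The genes described here are 10 members of the Notch pathway, with the feedback regulator Nrarp at their head, in rat adductor muscle pricked with a fine needle. They were Nrarp, the receptor genes Notch1, Notch2, Notch3 and Notch4, the ligand genes Dll4 and Jag1, the target genes Hes1 and Hey1, and Rbpj. They were chosen by gene symbol from the platform annotation, among 14217 genes with a probe set of a single symbol, and had 18 probe sets between them. The choice was made with the difference between the limbs already known, so the values below are a description and none was tested. Measured means that 1 or both arrays reached a signal floor of 19.8, the median of all signals, which was the case for 8 of the 10 genes and 11 of their 18 probe sets. Notch2 and Notch4 stayed below the floor on both arrays.

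The study compared adductor muscle, from the inner thigh, of the left hindlimb of male Lewis rats (an inbred strain, labelled 275 g) 24 hours after 100 pricks with a 0.14 mm steel needle in a square of 10 mm by 10 mm with adductor muscle of the right hindlimb, which was left intact. Each limb was represented by 1 Affymetrix array of total RNA, so no difference has a replicate check, and "higher" and "lower" describe these 2 samples. Stimulation, body side and array cannot be told apart. The labels give neither the number of rats nor their age, nor whether both pieces came from 1 animal.

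In the Notch pathway a ligand of the Delta-like (Dll) or Jagged (Jag) family on one cell binds a Notch receptor on its neighbour. The receptor is then cut by an ADAM protease and by gamma-secretase, and its intracellular part joins the DNA-binding protein RBPJ and a Mastermind coactivator to switch on genes such as those of the Hes and Hey families and Nrarp. NRARP in turn binds the intracellular domain and limits its activity, which makes it a negative feedback regulator. In skeletal muscle the pathway is known for its part in vessel sprouting and arterial identity, in the maintenance of mural cells around vessels, where Notch3 acts, and in keeping satellite cells, the stem cells of the fibres, quiescent.

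RBPJ binds the letters TGGGAA. Among the members, Nrarp and Hes1 were the 2 target genes lowest relative to the control limb. The stretches before their starts are shown because they bear on that step of the pathway. Each is the 250 bases before the annotated start, 5′ to 3′ on the gene's strand, from RefSeq (build GRCr8), with TGGGAA or its reverse complement TTCCCA in capitals where present. Hes1 lies at chr11:84213046-84213295 on the minus strand and Nrarp at chr3:28390495-28390744 on the plus strand.
Hes1: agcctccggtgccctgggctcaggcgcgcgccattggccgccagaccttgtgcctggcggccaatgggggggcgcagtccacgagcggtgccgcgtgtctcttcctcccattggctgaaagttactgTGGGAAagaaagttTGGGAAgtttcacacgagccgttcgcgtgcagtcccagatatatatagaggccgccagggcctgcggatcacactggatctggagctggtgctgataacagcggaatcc
Nrarp: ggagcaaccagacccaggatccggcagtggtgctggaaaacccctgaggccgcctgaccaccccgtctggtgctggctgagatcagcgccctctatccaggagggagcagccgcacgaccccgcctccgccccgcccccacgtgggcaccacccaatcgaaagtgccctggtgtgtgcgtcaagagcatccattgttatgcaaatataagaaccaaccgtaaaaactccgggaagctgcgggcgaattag
The Hes1 stretch held 2 matches in the same orientation, beginning 123 and 109 bases before the start. The Nrarp stretch held 0 matches, which says only that these letters are not in this window. Of the 8 members with a promoter entry, 3 held the motif (Hes1, Notch4 and Rbpj), and of all 33469 promoter entries 22.1% did.

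The 2 arrays were on a common scale, with a mean signal of 76.5 on each after trimming 2% of probe sets at either end. Ratios are on the log2 scale, stimulated over control, with signals below the floor raised to it, and each gene is represented by its brightest measured probe set. The median log2 ratio of all 9956 measured genes was 0.019. The only error at hand is the disagreement between probe sets of 1 gene, which gave an SD of 0.31 for a single log2 ratio over 2174 genes and of 0.36 in the 724 dimmest. The geometric mean signals of 6 of the 8 measured Notch pathway genes lay in the range of those dimmest genes. The SD of 0.31 is called the probe set SD below. It came from probe sets at or above the floor on both arrays, so it does not measure the error of signals below the floor. It covers neither limbs nor animals. The 18 hybridisation spike-ins all had lower signals with the stimulated sample (median log2 ratio -0.38). With scaling to them the median over all genes became 0.39, with 532 genes at least 2-fold higher and 43 lower, in place of 140 and 141, so every direction given here is relative to the median gene.

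Of the 8 measured genes, 1 (Nrarp) was at least 2-fold lower in the stimulated limb and 0 were higher by that much, while among all measured genes 1.42% were past 2-fold downwards and 1.41% upwards. The median log2 ratio of the 8 was -0.16, and -0.053 over the 7 without Nrarp. Nrarp, Hes1 and Notch3 were lower by more than the probe set SD, as were 18% of all measured genes, and Notch1, Jag1, Rbpj, Dll4 and Hey1 lay within it. In all, 5 members lay below 0, as did 47.7% of all measured genes, and 3 above. Scaling to the spike-ins turned Notch1 and Jag1 above 0 and left Nrarp, Hes1 and Notch3 below it. In bulk muscle, fewer cells of a type and less RNA per cell cannot be told apart.

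**Figure D1:**
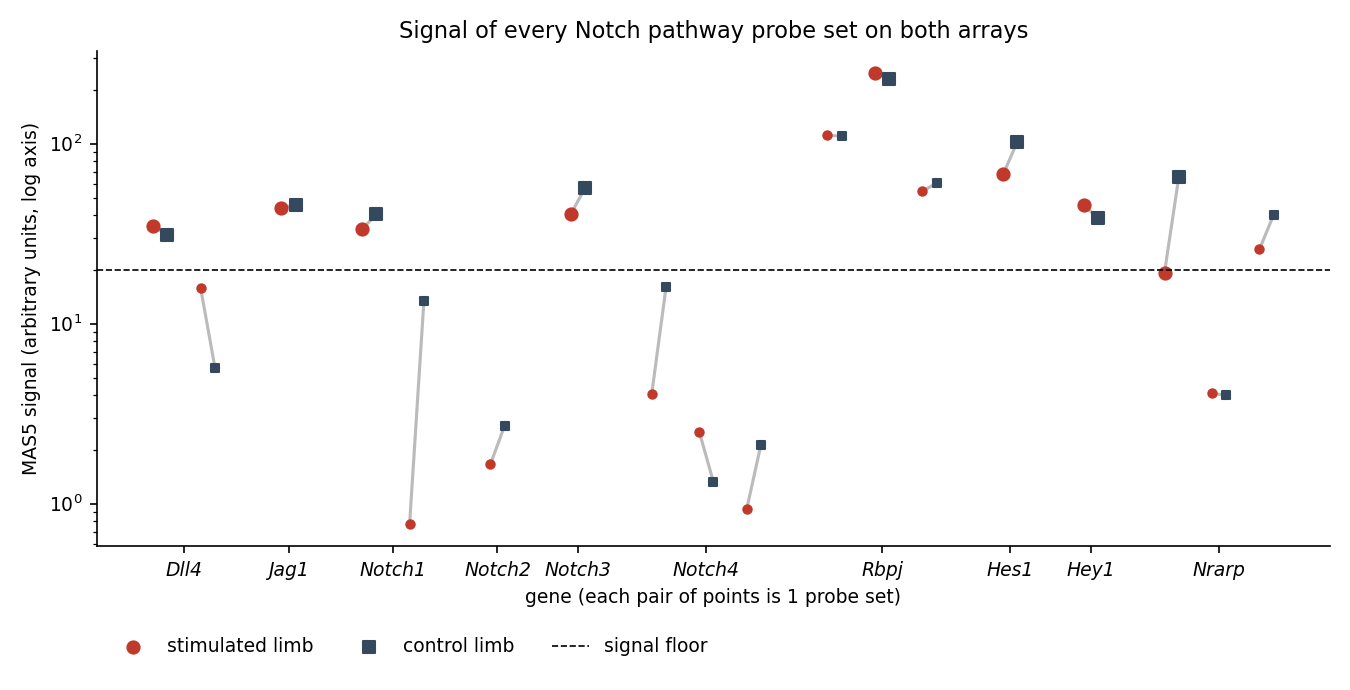
MAS5 signal (log axis, arbitrary units) of all 18 probe sets of the 10 Notch pathway genes, with stimulated limb (circles) left of control limb (squares), large symbols for the probe set that represents a measured gene and a dashed line at the signal floor of 19.8. The upper Nrarp pair shows the widest gap among probe sets that reached the floor, and every probe set of Notch2 and Notch4 lies below the line on both arrays.

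Nrarp (Entrez gene 499745), the feedback inhibitor, had 3 probe sets. The brightest read 19.3 in the stimulated limb, just below the floor, against 65.2 in the control limb, so it was at least 3.30-fold lower (log2 ratio -1.72). The second gave 25.9 in the stimulated limb and 40.4 in the control limb, a log2 ratio of -0.64. Both measured probe sets were thus lower in the stimulated limb, by amounts further apart than 0.44, the SD of the difference between paired probe sets. That SD came from pairs above the floor on both arrays, which the Nrarp pair was not, so it does not measure the error here. The other probe set, with 4.10 in the stimulated and 4.01 in the control limb, was below the floor on both arrays and gives no ratio. With the median over its measured probe sets the log2 ratio was -1.18, and with a pseudocount of 16 in place of the floor it was -1.20, both still past 2-fold.

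Among the other targets, Hes1 (Entrez gene 29577), a repressor of the basic helix-loop-helix family and a classic Notch target, read 67.5 in the stimulated limb and 102.6 in the control limb. It was 1.52-fold lower (log2 ratio -0.60), and a difference of at least 1.5-fold in that direction was seen for 6.89% of all measured genes. Hes1 had 1 probe set, so nothing within the arrays repeats the value. Hey1 (Entrez gene 155437), a related repressor that acts in the arterial endothelium, had 45.5 in the stimulated limb and 38.7 in the control limb, a log2 ratio of 0.23. Of the 3 targets, Nrarp and Hes1 were thus lower by more than the probe set SD. Hey1 was above 0 by less than that, on 1 probe set, so its direction cannot be read.

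**Figure D2:**
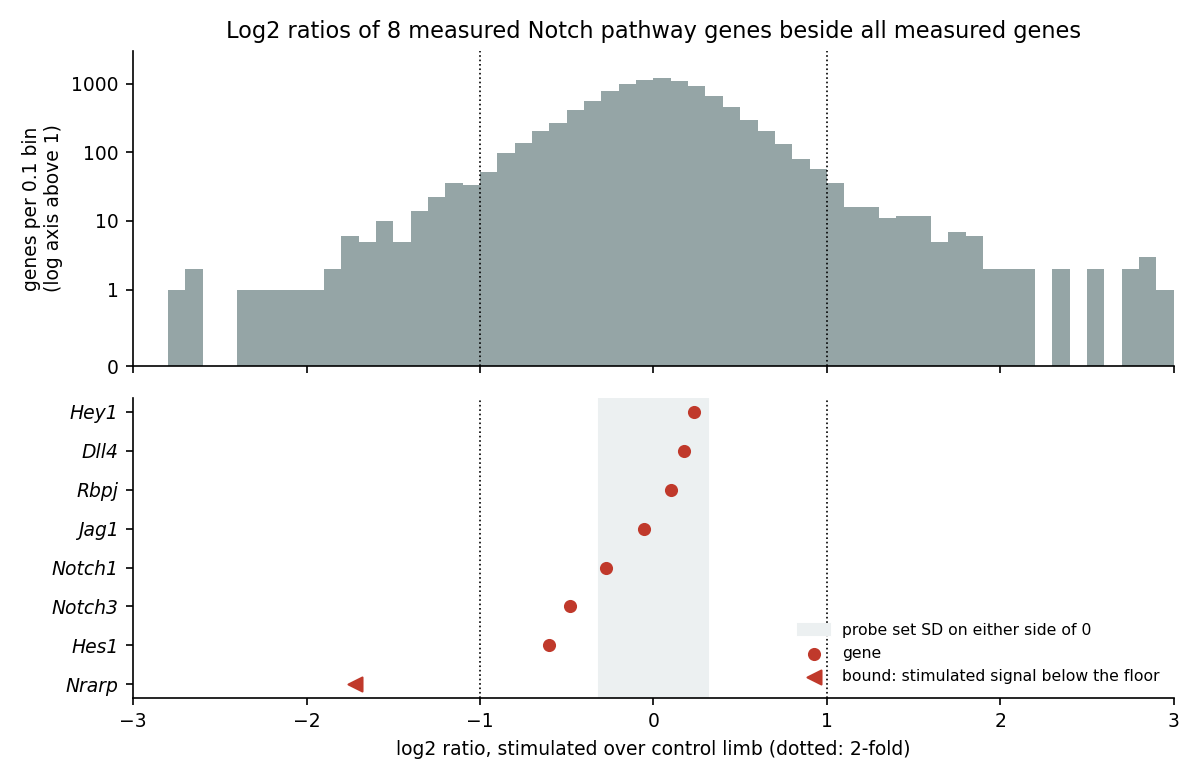
Upper panel, number of measured genes per 0.1 bin of log2 ratio (log axis above 1); lower panel, the 8 measured Notch pathway genes on the same axis, with the probe set SD shaded and 2-fold dotted, and 3 genes with ratios above 3 lying off the axis. Nrarp, a bound at -1.72, sits in the sparse left tail, Hes1 (-0.60) and Notch3 (-0.48) on the left shoulder and the other 5 genes inside the shaded band.

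Of the receptors, Notch3 (Entrez gene 56761), which is expressed by pericytes and smooth muscle cells, read 40.8 in the stimulated limb against 57.1 in the control limb. It was 1.40-fold lower (log2 ratio -0.48). Notch1 (Entrez gene 25496), the receptor of endothelial and satellite cells among others, had 33.6 in the stimulated limb and 40.5 in the control limb, a log2 ratio of -0.27 that is within the probe set SD. Its second probe set gave 0.774 in the stimulated and 13.3 in the control limb, both below the floor. The single Notch2 probe set gave 1.65 and 2.71, and the brightest of the 3 Notch4 probe sets, for the receptor enriched in endothelium, gave 4.08 in the stimulated limb and 15.9 in the control limb. No ratio is given for these below-floor signals, so a difference in Notch2 or Notch4 was not detectable with this floor. With a floor at the 25th percentile (5.78), Notch4 counted as measured and its log2 ratio was -1.46, as a bound.

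Neither ligand gene differed by more than the probe set SD. Dll4 (Entrez gene 311332), the ligand of endothelial tip cells and arteries, had 34.9 in the stimulated limb and 30.9 in the control limb (log2 ratio 0.17). Its second probe set, with 15.7 in the stimulated and 5.70 in the control limb, was below the floor. Jag1 (Entrez gene 29146), a ligand of endothelium and smooth muscle, had 44.1 in the stimulated limb and 45.7 in the control limb (log2 ratio -0.053).

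Rbpj (Entrez gene 679028), the DNA-binding partner of the receptors' intracellular part, was the member with the most measured probe sets. They gave 246.3, 111.4 and 54.4 in the stimulated limb against 230.0, 110.2 and 60.5 in the control limb. Their log2 ratios were 0.099, 0.016 and -0.15, so all 3 lay within the probe set SD although they differed in sign.

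The floor limits how large a decrease could be seen. From the control signal to the floor, the largest measurable decrease was 1.56-fold for Dll4, 1.96-fold for Hey1, 2.05-fold for Notch1 and 2.31-fold for Jag1. It was 2.89-fold for Notch3, 3.30-fold for Nrarp, 5.19-fold for Hes1 and 11.6-fold for Rbpj. Dll4 and Hey1 could therefore not have been counted as 2-fold lower, whereas Notch1, Jag1, Notch3, Hes1 and Rbpj could and were not, Notch1 and Jag1 with little room.

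Over both arrays, the plainly named measured genes with a log2 ratio nearest to that of Nrarp, without a floor (-1.76), were Adipoq, Cd247 and Exoc3l2, each within 0.1. Adipoq, the adipocyte hormone adiponectin, had 58.7 in the stimulated limb and 198.6 in the control limb. Cd247, the zeta chain of the T-cell receptor complex, had 6.47 in the stimulated and 21.9 in the control limb. Exoc3l2, a relative of an exocyst subunit, had 13.2 in the stimulated and 44.5 in the control limb. In the stimulated limb Nrarp, Cd247 and Exoc3l2 were below the floor, so their decreases can be given only as bounds and this nearness describes the unfloored signals alone. Likeness over 2 samples is weak, since 29 of 9890 genes lay within 0.1 of Nrarp.

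The rest of the pathway was described through 6 lists by role, which held 55 genes. Of these, 40 were measured, 4 stayed under the floor in both samples and 11 had no probe set of their own symbol. Of the 40, Lfng and Adam10 (2 genes) passed 2-fold downwards, against 1.42% of all measured genes, and Hes6 (1 gene) upwards, against 1.41%. Lfng and Adam10 were below the floor in the stimulated limb, so they counted as measured through the control limb alone. Several of the 40 had control signals less than 2-fold above the floor and could not have been counted as 2-fold lower. The median log2 ratio of the 40 was -0.12, with 18 above 0 and 22 below it, against 47.7% of all measured genes below 0.

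Lfng, the lunatic fringe glycosyltransferase that alters which ligands a Notch receptor answers to, read 14.2 in the stimulated limb and 57.8 in the control limb. It was at least 2.92-fold lower. Mfng, manic fringe, had 29.4 in the stimulated and 38.0 in the control limb (log2 ratio -0.37). Poglut1, which adds glucose to the receptors, had a log2 ratio of 0.20. Of the 5 measured glycosylation genes, 2 were thus lower by more than the probe set SD, against 18% of all measured genes. For Mfng the margin was small, and smaller still beside the SD of 0.36 in the dimmest genes. The other 3 lay within the probe set SD, as did 6223 of all 9956 measured genes.

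Among the receptor-cutting enzymes, Adam10, the main protease of the first cut, had 18.7 in the stimulated limb against 41.5 in the control limb. It was at least 2.10-fold lower, and its other probe set was below the floor on both arrays. Psen2, a catalytic subunit of gamma-secretase, had 21.7 in the stimulated and 33.3 in the control limb (log2 ratio -0.62). Psenen, another subunit, had a log2 ratio of 0.14. Within the probe set SD lay 5 of the 7 measured genes of this list, and 6223 of all 9956 measured genes.

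The other target genes went both ways. Hes6, a family member known to oppose Hes1 and to favour myogenic differentiation, had 69.0 in the stimulated limb against 32.7 in the control limb and was 2.11-fold higher. Heyl, a target expressed in mural and satellite cells, had a log2 ratio of 0.33, and its second probe set, with a control signal below the floor, one of at least 0.62. Hes5 had 4.69 in the stimulated limb and 32.7 in the control limb, at least 1.65-fold lower, since the control signal stood only that far above the floor.

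Of the other ligands, all 3 measured genes lay below 0, against 47.7% of all measured genes. Dlk1, a non-classical ligand, had 18.4 in the stimulated and 36.5 in the control limb, at least 1.85-fold lower. Jag2 and Dlk2 had log2 ratios of -0.28 and -0.23, within the probe set SD. Dll1 and Dll3 stayed under the floor in both samples.

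Genes of the nuclear complex were 0 of 12 beyond 2-fold in either direction, against 1.42% of all measured genes downwards and 1.41% upwards. Maml1, Maml2 and Tle3 had control signals less than 2-fold above the floor, so they could not have been counted as 2-fold lower. Spen, a corepressor partner of RBPJ, had a log2 ratio of -0.53, the coactivator gene Maml2 one of -0.51 and Cir1, a corepressor, one of 0.60 (1.51-fold higher, a size that 6.55% of all measured genes reached upwards). The second Cir1 probe set lay at -0.042 and the second measured Maml2 probe set at 0.13, as a bound. Trafficking and turnover genes were also 0 of 9 beyond 2-fold, but Numbl, Dtx1 and Dtx4 likewise had too little room above the floor to be counted as 2-fold lower. Dtx1, a Deltex ubiquitin ligase, had 8.38 in the stimulated and 28.1 in the control limb, at least 1.42-fold lower. Dtx4 (0.55) and Fbxw7 (0.45), a ubiquitin ligase subunit that turns over the intracellular domain, lay above 0, but their second measured probe sets lay below it, at -0.38 and -0.55.

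**Figure D3:**
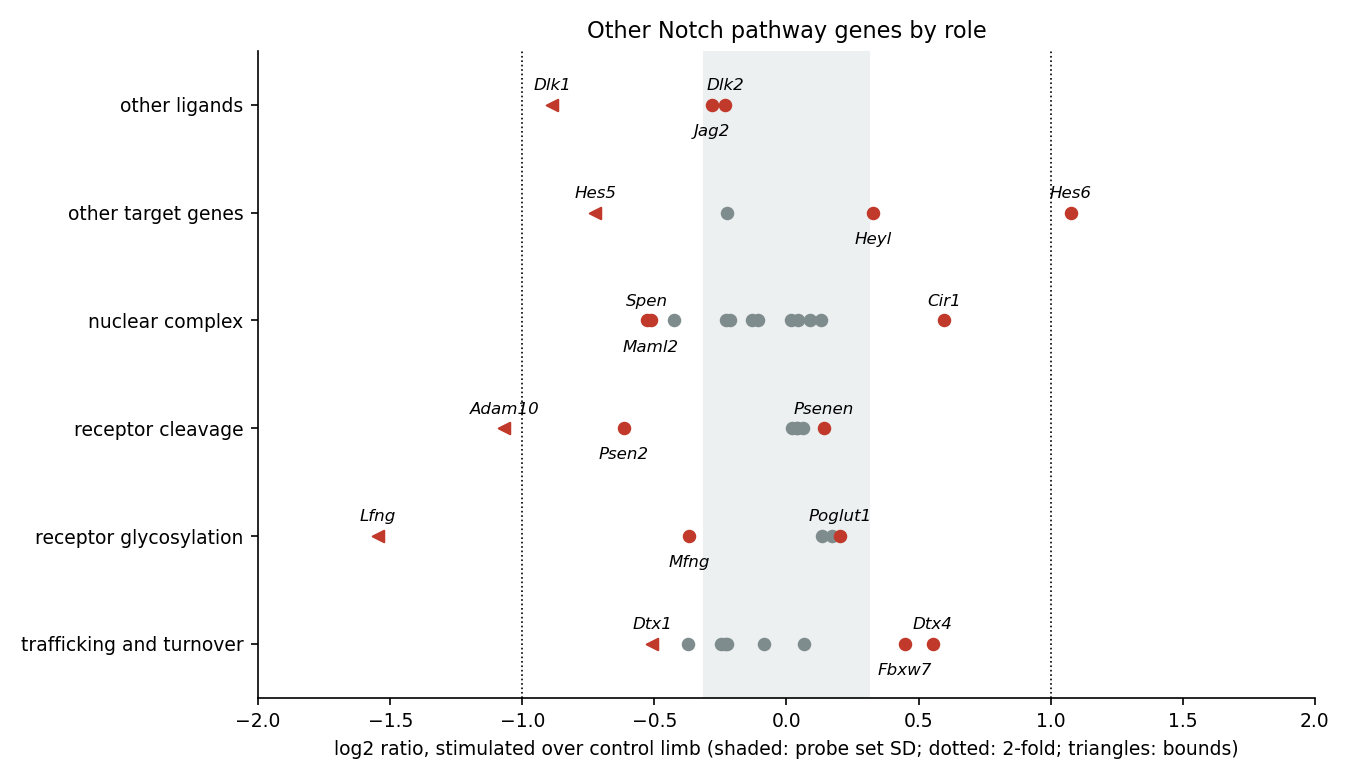
Log2 ratio of the 40 measured genes of the wider Notch pathway, grouped by role, with the 3 largest absolute ratios of each group in red and named, the probe set SD shaded, 2-fold dotted and triangles for bounds. Lfng and Adam10 lie left of the 2-fold line and Hes6 right of it, while 37 genes lie between the lines.

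Markers of the cells that carry the pathway also differed between the limbs. The median log2 ratio of the endothelial markers was -0.65, and 15 of the 17 measured lay below 0, against 47.7% of all measured genes. Of the 17, 4 were at least 2-fold lower, against 1.42% of all measured genes, namely Plvap (3.62-fold), Sox18 (2.91-fold), Flt1 (at least 2.22-fold) and Kdr (2.06-fold). Their summed signal was 1401 in the stimulated limb and 2331 in the control limb. The endothelial ligand gene Dll4 and the arterial target Hey1, at 0.17 and 0.23, lay above every one of these 17 markers, of which the highest stood at 0.062. Both were closer to that marker than the probe set SD of 0.31, so their order relative to it cannot be read. Each rested on 1 measured probe set. The Nrarp bound of -1.72 lay below the values of 16 of the 17. Its order relative to Plvap (-1.86), and to Flt1, which is itself a bound, is not known. The second measured Nrarp probe set, at -0.64, lay within the range of these markers.

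Mural markers without Notch3 had a median log2 ratio of -0.30, with 10 of 13 measured genes below 0, against 47.7% of all measured genes. Acta2, the smooth muscle actin, was 2.28-fold lower, and the summed signal was 9047 in the stimulated limb and 10847 in the control limb. Desmin (Des), which fibres also make, supplied most of that sum, with 7316 in the stimulated and 8360 in the control limb. The log2 ratio of Notch3, -0.48, lay within the range of these markers, from -1.19 to 0.44.

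The median log2 ratio of the 9 measured satellite and myogenic markers was 0.49, with 7 above 0, against 5206 of all 9956 measured genes. Itga7, a laminin receptor subunit of muscle, was 2.02-fold higher. Cdh15 (-0.55) and Vcam1 (-0.31) lay below 0, and Myod1 stood at 0.007. The summed signal of the 9 was 2612 in the stimulated limb and 1927 in the control limb, of which Myf6 supplied 1212 and 861. Leukocyte markers had a median of 0.71, with 14 of 14 above 0, against 5206 of all 9956 measured genes, and 4 at least 2-fold higher (Tyrobp, Cd53, Ptprc and Cd68), against 1.41%. They summed to 10048 in the stimulated limb and 6394 in the control limb. Fibroblast markers had a median of -0.26 over 12 genes, with a sum of 20104 in the stimulated and 24351 in the control limb. Markers of skeletal muscle fibres were measured for 15 of 16 genes and bright on both arrays, with Ckm at 12064 in the stimulated and 16392 in the control limb. Their median was -0.39, with 10 below 0, against 47.7% of all measured genes, and 5 above. The highest was Myh2, at 0.997. The part of these cell type differences in the Notch pathway values was not tested.

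**Figure D4:**
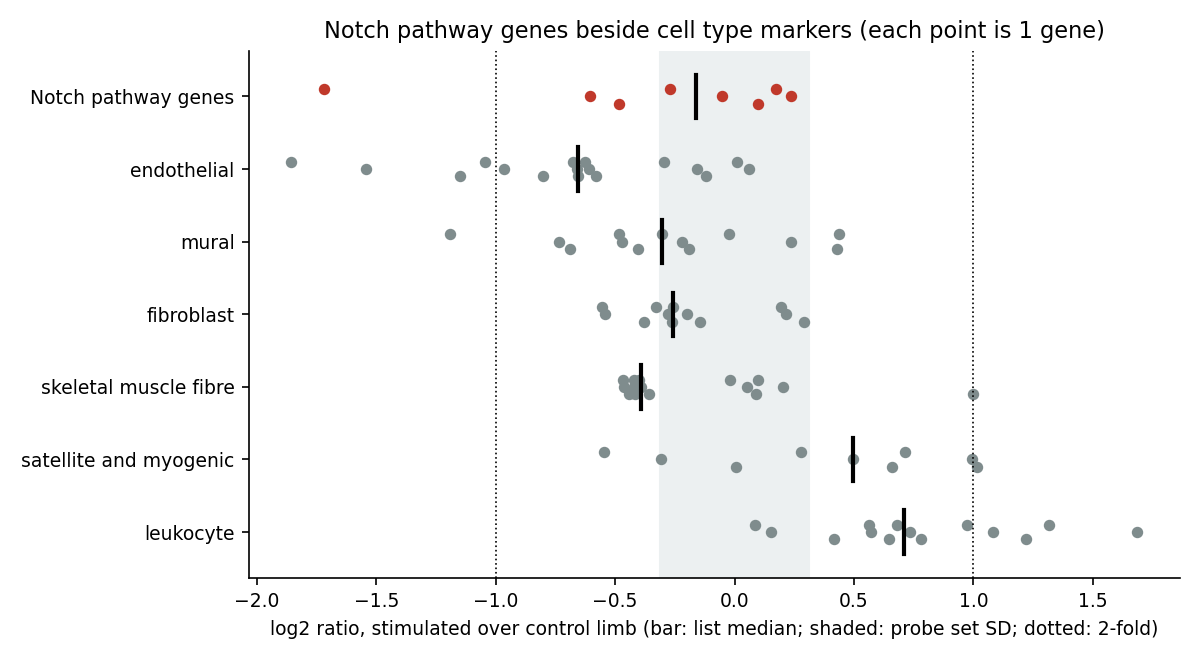
Log2 ratio of each measured Notch pathway gene (red) and of cell type markers (grey), with a bar at each list's median, the probe set SD shaded and 2-fold dotted. The Notch pathway median of -0.16 lies between those of the endothelial (-0.65) and the satellite and myogenic markers (0.49), and Nrarp is the red point far to the left.

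Across other settings Nrarp stayed the lowest of the 8 genes wherever it could be measured, from -1.77 to -1.18 over 9 settings. Hes1 lay between -0.61 and -0.22 over 10 settings and Notch3 between -0.49 and -0.10 over 9, both nearest to 0 under spike-in scaling. Hey1 and Dll4 were above 0 in all 9 settings in which each was measured, from 0.17 to 0.62 and from 0.12 to 0.56.

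**Figure D5:**
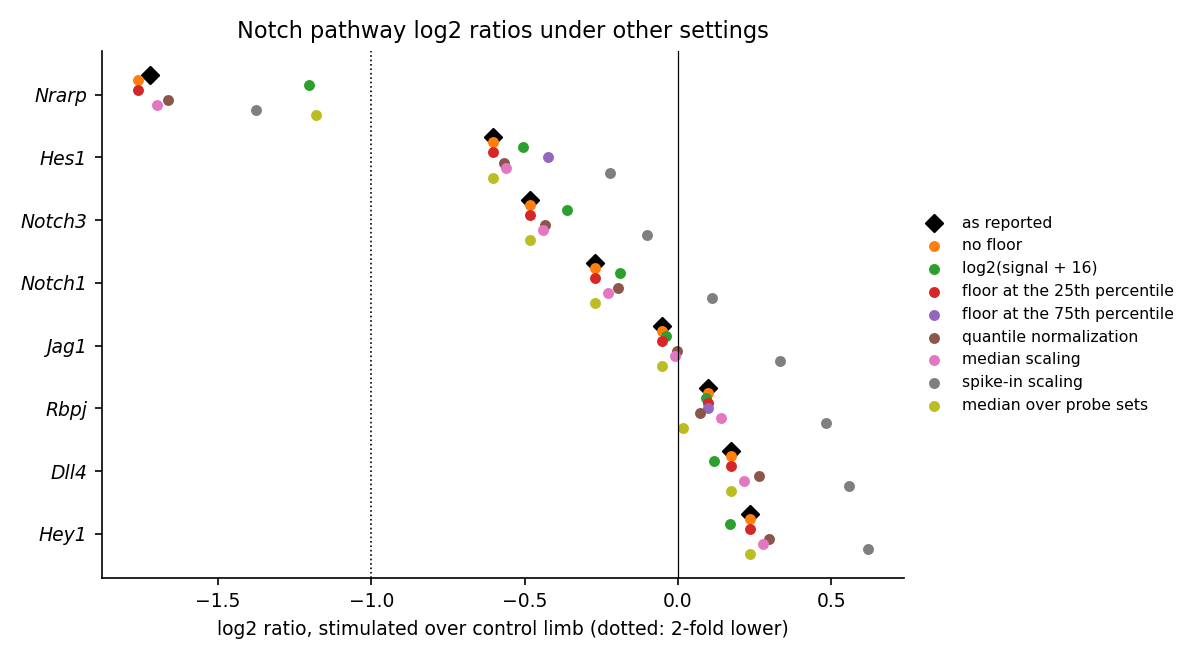
Log2 ratio of each measured Notch pathway gene under the reported setting (diamond) and 8 others (circles), with lines at 0 and at 2-fold lower. Nrarp stays left of the 2-fold line in each of these where it has a value, and spike-in scaling (grey) moves every gene to the right.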

How the data were processed

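Total RNA of 2 muscle samples was hybridised to 1 array each after RNeasy purification and one-cycle biotin labelling, per the labels' protocols. Per the submitters' processing notes, the authors used MAS5 to make the deposited values, which are linear signal intensities. This algorithm combines the probes of a set and scales each array. Neither its version nor its target value is given in the sources used here. Precision is limited by the number of arrays, 1 per group.

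Of 31042 probe sets that were not controls, 20826 had a single gene symbol in the platform annotation, 436 had several and 9780 were unlisted. Of those with 1 symbol, 20758 matched the RefSeq gene table (GRCr8) by gene identifier, with 0 symbols changed. Signals were floored at the 50th percentile of both arrays, and the brightest measured probe set (by mean log2 signal) stood for a gene. Genes were counted at a 2-fold difference, with no test. The counting was tested on simulated data with large differences in bright genes, so that test does not cover most members, which are dimmer. Python 3.11.15, pandas 2.3.3 and numpy 2.4.6 were used.

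The members, gene lists and settings were chosen with earlier results of these data known. Genes named were all members, up to 3 of each wider list with the largest absolute ratio, markers at least 2-fold apart or among the 2 brightest of their list, and the 3 genes nearest to Nrarp. Not every gene of this rule is printed. The second probe sets and the above-floor limits were described after their values were seen.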

Additional observations from a re-analysis of the deposited data

How the results depend on the processing

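Counts at 2-fold depended on the floor, since most of these signals lie close to it. With the floor at the 25th percentile (5.78), 2 members were at least 2-fold lower, because Notch4 was then measured, with a log2 ratio of -1.46 as a bound (its stimulated signal of 4.08 was below that floor too). With the floor at the 75th percentile (76.5), 2 members were still measured and 0 were lower, and in the wider pathway 0 were lower and 0 higher of 16 measured. In the wider pathway 4 genes were lower with the low floor and 4 with no floor, the added genes being Hes5 and Dtx1. With log2(signal + 16), 0 were higher. Spike-in scaling left 1 wider gene lower (Lfng) and gave medians of 0.22 for the members and 0.27 for the wider pathway. Relative to the median gene, an alternative added after seeing the data, these medians were -0.17 and -0.12. At a 1.5-fold threshold, 2 of 8 members and 5 of 40 wider genes were lower, against 6.89% of all measured genes, and 2 wider genes were higher, against 6.55%. Quantile normalization, median scaling, the median over probe sets and leaving out suffixed probe sets moved none of these counts. No member reached 2-fold higher under any of these settings. No paired analysis was possible because each limb had 1 array, and for the same reason no replicate could be left out.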

Other observations

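Probe sets of a single gene did not always share a sign in the wider Notch pathway. How often this occurs over all genes was not computed, so it is not given as a trait of the pathway. Some disagreements were between values close to 0, as for Ep300 (0.042, and -0.019 as a bound). Of 16 wider genes with at least 2 measured probe sets, 5 were lower in the stimulated limb on all of them, 1 was higher on all of them and 10 went both ways. The 5 were Crebbp and Kat2b, both histone acetyltransferases, the deacetylase Hdac1, the corepressor Ncor1 and the ubiquitin ligase Nedd4, and the 1 was Heyl. The 5 measured probe sets of Nedd4 had log2 ratios from -0.66 to -0.22, and the brightest, which represents the gene above, had the smallest difference, with 1548 in the stimulated limb and 1808 in the control limb. The second probe set of Kat2b, with 40.4 in the stimulated limb and 72.8 in the control limb, had a log2 ratio of -0.85, against -0.23 for the brightest. Ncstn, a gamma-secretase subunit, had 0.022 for its brightest and -0.66 for its second probe set. Among the members, Nrarp was lower on both of its measured probe sets, and Rbpj went both ways within the probe set SD. These genes were chosen after their values were seen.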
